A study of Mus musculus with 16 samples.

Results

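The BCL2 family is the set of proteins that decides at the mitochondrial outer membrane whether a cell lives or dies. The 10 members described here are the pro-survival genes Bcl2, Bcl2l1 and Mcl1, the BH3-only death genes Bcl2l11, Bbc3, Pmaip1, Bid and Bad, and the effectors Bax and Bak1. They were chosen by symbol, and all 10 were among the 13275 genes of the RNA table. In the chromatin data the members were the peaks that overlapped these gene bodies extended by 2 kb at each end. Merged peaks gave 67 member regions of 73648 in cells sorted in culture and 63 of 72327 in cells recovered from tumours.

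The pro-survival proteins hold the effectors and the BH3-only proteins in check by binding them. BH3-only proteins are made or activated under stress or loss of growth signals, and they free or activate Bax and Bak1, which then permeabilise the mitochondrial membrane and release cytochrome c. In T cells, Bcl2l11 (the protein BIM) is known for the death of activated cells as a response wanes, and Bcl2, Mcl1 and Bcl2l1 (BCL-XL) for keeping resting, activated and memory cells alive. FOXO factors are known activators of Bcl2l11 and Bbc3 (PUMA), CHOP of Bcl2l11, and p53 of Bbc3, Pmaip1 (NOXA) and Bax.

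All 16 libraries came from CD8+ T cells of Pmel-LC3-GFP-RFP mice, whose T cells carry the Pmel receptor for a melanocyte antigen and a tandem fluorescent reporter of LC3, the protein that coats autophagosomes. Purified cells were stimulated with antibodies to CD3 and CD28, each at 2 µg/ml, for 3 days with IL2 at 100 IU/ml, exposed to CO for 24 h, and separated by flow sorting on the reporter into an LC3-GFP positive and an LC3-GFP negative population. The RNA comparison has 2 libraries of each population, and accessible chromatin (ATAC-seq, in which Tn5 transposase cuts open DNA) was profiled in another 2 and 2, called sorted cells below. For the tumour libraries, C57BL/6 mice that had carried subcutaneous B16-F10 melanoma (300000 cells) for 12 days received 300000 positive or negative cells. The Vβ13+CD8+ cells of their tumours were taken after 15 days, mouse by mouse, from 4 hosts per population. Every group had CO, so the comparison is of positive with negative cells and not of CO with no CO. The host mice were not described as depleted of their own T cells, and Vβ13 marks the chain of the transferred receptor rather than the donor cell itself. The labels do not say whether RNA and sorted-cell replicates are separate animals or cultures, so p-values measure only how these samples scatter, and that scatter may be technical.

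RNA libraries held 14567540 to 17557628 counts. All 7 T cell markers and both CD8 genes were present, with Cd8a at 523.6 and 534.3 CPM (counts scaled to library size) in positive and 582.5 and 618.1 in negative libraries. Markers of B and plasma cells differed between the groups. Of 8 such markers 6 were listed and tested and 5 were higher in the positive libraries, with a summed level of 15.0 and 13.5 CPM there against 4.47 and 6.01 CPM, while Pax5 and Ighm were not listed. Of 9 macrophage, monocyte and dendritic markers, 3 were higher and 2 lower, and Lyz2, Csf1r and Adgre1 were not listed. The sums were 69.5 and 74.5 against 75.4 and 79.7 CPM. Most of each sum was H2-Ab1, which was lower (46.75 and 52.18 against 66.99 and 71.25 CPM). The other lower marker was Cd68 (1.78 and 2.26 against 6.02 and 5.73 CPM). Cd74 was higher (16.3 and 14.6 against 0.841 and 1.33 CPM). So were H2-Aa (2.56 and 3.58 against 0.259 and 0.14) and Mpeg1 (1.67 and 1.07 against 0 and 0.0699). In the positive libraries 5 of the 7 T cell markers and both CD8 genes were lower, as were both tested NK markers, and of 2 tested CD4 markers 1 was higher and 1 lower. The share of the ribosomal precursor Rn45s was 1.43% and 1.51% in positive and 3.20% and 3.58% in negative libraries. The part of these differences in the results below was not tested.

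Promoter letters are given first, because the start sites of the family were open chromatin in these cells. RefSeq windows of 250 bases before to 50 bases after an annotated start (GRCm38.p6) were read for 9 members, 15 windows in all, and not for Pmaip1. They were searched on both strands for FOXO (GTAAACA), CEBP-ATF (TGATGNAA), AP-1 (TGANTCA), RUNX (TGTGGTT), ETS (CCGGAAGT), STAT (TTCNNNGAA) and E-box (CACGTG) letters. Matches were found in 6 windows of 5 members, none overlapping another, and 9 windows had none. The 30 bases around each match that lies before a start are shown because Bcl2l11 and Bax are the members called in the RNA, Bbc3 shares the FOXO letters with Bcl2l11, and Bak1 is the partner of Bax. Capitals mark the match, and each sequence reads 5′ to 3′ on the strand of its gene.
Bcl2l11, FOXO at -227, chr2:128125799-128125828, plus strand: caagacactaggGTAAACAcgccggggtgg
Bbc3, FOXO at -167 of the second start, chr7:16310082-16310111, plus strand: gtctggcgggttTGTTTACaaacaatgggg
Bbc3, E-box at -64 of the third start, chr7:16310355-16310384, plus strand: gcggggcgggcgCACGTGgcggcgtcgagg
Bax, E-box at -9, chr7:45466899-45466928, minus strand: cctgcagcgagcgatgatgatCACGTGact
Bak1, RUNX at -221, chr17:27028831-27028860, minus strand: tttgttgttgtcTGTGGTTtgcttttcact
Positions count bases before the annotated start. The other 2 matches lay after a start, an ETS match at 35 in Bcl2l1 and a further E-box at 36 in Bax. Over all 32851 RefSeq windows, FOXO letters were in 3.65%, E-box letters in 7.15%, RUNX letters in 5.27% and ETS letters in 3.89%. CEBP-ATF (3.97%), AP-1 (7.81%) and STAT (8.3%) letters were in none of the 15 member windows. A match is a description of the letters and says nothing of whether a factor was bound.

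The BH3-only gene Bcl2l11 was lower in LC3-GFP positive cells, and it was the largest change among the 10 members. Its RNA stood at 59.7 and 59.4 CPM in the positive libraries and 114.3 and 115.4 CPM in negative libraries. The 2 groups did not overlap, and the spread within each was small beside the gap (59.6 ± 0.234 against 114.8 ± 0.762 CPM, SD, n = 2 each). The log2 fold change, positive minus negative, was -0.95 ± 0.0574 (SE; 95% interval -1.07 to -0.83), a 1.93-fold lower level, with an adjusted p of 1.47e-09 (edgeR quasi-likelihood test, Benjamini-Hochberg over 12022 genes). In bulk RNA, fewer cells that express a gene and less RNA per cell cannot be told apart. The gene lies at chr2:128126038-128162547 on the plus strand of mm10, and Acoxl, whose annotated body runs over its start, was at 0.836 to 2.46 CPM.

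Bax was the other member that passed the test, and it was higher in positive cells. The effector stood at 177.8 and 180.8 CPM in positive and 140.3 and 155.4 CPM in negative libraries, without overlap. Its log2 fold change was 0.28 ± 0.0536 (SE; 95% interval 0.17 to 0.39), 1.21-fold higher, with an adjusted p of 0.000885. Bax lies at chr7:45461695-45466898 on the minus strand. So 2 of the 10 members were called, 1 higher and 1 lower, against a background of 25.0% of all tested genes called (11.3% higher and 13.6% lower). The share of members called was not above the background. The median log2 fold change of the members was -0.015, beside 0.00225 over all genes tested. The CPM of the 2 groups did not overlap for 9 of the 10 members, where 61.5% of all tested genes did not overlap.

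**Figure D1:**
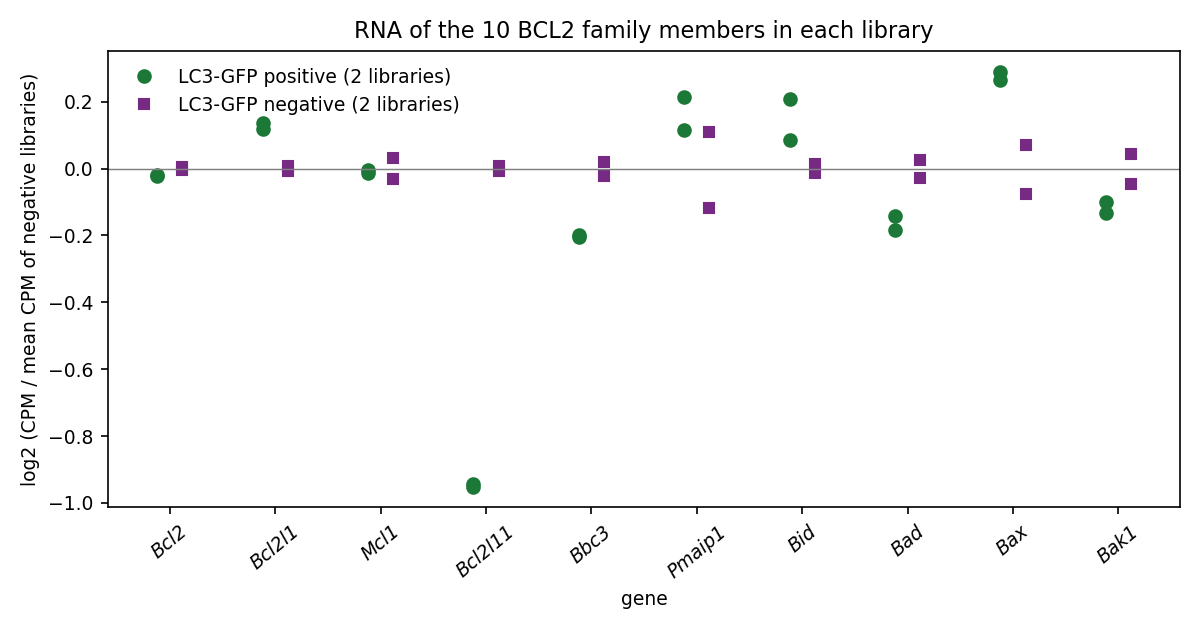
RNA of the 10 members in each of the 4 RNA libraries, as log2 of the CPM over the mean CPM of the 2 negative libraries (vertical axis; 0 is that mean), with positive libraries as circles and negative libraries as squares. Bcl2l11 lies near -0.95 in both positive libraries, Bax lies above its negative libraries, and the groups of Mcl1 overlap.

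The pro-survival genes differed by little. Bcl2 read 848.8 and 846.1 CPM in positive and 856.8 and 863.4 CPM in negative libraries, a log2 difference of -0.02 (95% interval -0.11 to 0.07; adjusted p = 0.764). Mcl1, which encodes a short-lived protein that activated T cells need, read 262.4 and 264.1 against 259.1 and 270.7 CPM, a log2 difference of -0.01 (95% interval -0.10 to 0.09; adjusted p = 0.917). It was the only member whose groups overlapped. Bcl2l1 read 140.6 and 142.5 against 130.4 and 128.9 CPM, with a log2 difference of 0.13 (95% interval 0.02 to 0.23; adjusted p = 0.0725). Both of its positive libraries lay above both negative libraries. All adjusted p-values here and below come from the same edgeR fit.

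The remaining BH3-only genes did not pass the test and did not share a direction. Bbc3, an activator of Bax and Bak1 that p53 induces, read 39.9 and 39.7 CPM in positive and 45.1 and 46.4 CPM in negative libraries (log2 difference -0.20, 95% interval -0.36 to -0.05, adjusted p = 0.0544). Pmaip1, which neutralises Mcl1, read 66.4 and 71.1 against 56.4 and 66.1 CPM (0.17, 95% interval 0.01 to 0.32, adjusted p = 0.115). Bid, which is cut by caspase-8 and carries the death receptor signal to mitochondria, read 38.6 and 35.4 against 33.7 and 33.1 CPM (0.15, 95% interval -0.02 to 0.32, adjusted p = 0.204). Bad, which growth factor signalling holds inactive by phosphorylation, read 12.1 and 12.4 against 13.5 and 14.0 CPM (-0.16, 95% interval -0.43 to 0.11, adjusted p = 0.391). Its annotated body overlaps that of Gpr137, at 9.70 to 13.3 CPM, and how shared reads were counted is not given in the sources used here. Bak1, the second effector, read 166.5 and 170.3 against 188.3 and 176.9 CPM (-0.12, 95% interval -0.22 to -0.01, adjusted p = 0.0939), the opposite sign to Bax.

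Bcl2l11 and Bax were called under every alternative tried. With library sizes alone in place of TMM scaling, Bcl2l1 (adjusted p = 0.00846) and Pmaip1 (0.0354) were also called higher, the signs of Bcl2 (0.04) and Mcl1 (0.05) turned, and the share of all calls that were higher went from 45.4% to 65.1%. Without negative replicate 2, Pmaip1 (higher, adjusted p = 0.00206) and Bak1 (lower, adjusted p = 0.00658) were called, at log2 differences of 0.28 and -0.16. Without negative replicate 1 these were 0.06 (adjusted p = 0.656) and -0.07 (adjusted p = 0.334). Bbc3 was called lower (adjusted p = 0.0498) when only genes of at least 1 CPM were tested.

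Ratios within a library are free of the scaling between libraries. The Bcl2 to Bcl2l11 count ratio was 14.2 in both positive libraries and 7.50 and 7.48 in the negative libraries, a rise of 0.93 on the log2 scale or 1.9-fold. The Mcl1 to Bcl2l11 ratio was 4.39 and 4.45 against 2.27 and 2.35, or 1.92-fold. The Bcl2l1 to Bcl2l11 ratio was 2.35 and 2.40 against 1.14 and 1.12, or 2.11-fold. In each of the 3 ratios both positive libraries lay above both negative libraries. All 3 share Bcl2l11 as the denominator, and the numerators differed by little. So the ratios restate the Bcl2l11 difference (log2 -0.95) and are not 3 separate results. The counts are not per transcript length, so the ratios say how the balance differed between the populations and not which RNA was the more abundant.

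Other genes of the pathway were read from lists. Of 12 further BCL2 family genes 9 were listed and tested, and edgeR called 0 of them, with 1 at an unadjusted p under 0.05 and 0 called by DESeq2. They include Bcl2a1b, singled out after its values were seen, at 9.70 and 8.98 against 13.9 and 10.7 CPM (log2 difference -0.40, adjusted p = 0.0697), a near-identical copy of Bcl2a1d whose reads cannot be told apart with certainty. Its difference was -0.57 (adjusted p = 0.00403) without negative replicate 2 and -0.19 (0.485) without negative replicate 1. Of the 18 apoptosome, caspase and inhibitor genes, 3 were higher and 2 were lower (list median 0.07). Of all tested genes, 25.0% were called in either direction. DESeq2 called 1 of the 18 higher and 1 lower. Htra2, a mitochondrial protease that is released with cytochrome c and counters caspase inhibitors, was higher (51.1 and 50.9 against 38.5 and 38.8 CPM; log2 difference 0.40 ± 0.0725, SE; adjusted p = 5.37e-04). Birc3, a ubiquitin ligase of the inhibitor of apoptosis family, was lower (35.0 and 33.5 against 43.3 and 47.0 CPM; -0.39 ± 0.0793; adjusted p = 0.00127). The other 3 calls, named after their values were seen, were smaller: cytochrome c itself (Cycs, 0.20, adjusted p = 0.012) and Diablo, which like Htra2 counters caspase inhibitors (0.23, adjusted p = 0.0322), were higher, and the initiator caspase Casp9 was lower (-0.37, adjusted p = 0.00866). Without positive replicate 1 these 3 calls were lost, at adjusted p of 0.052, 0.288 and 0.155, and DESeq2 called none of the 3.

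Of all tested genes, 25.0% were called (11.3% higher and 13.6% lower), which is the share to set beside each list that follows. In the death receptor arm, 2 of 7 genes were lower and 0 were higher. They were Fasl, the ligand of the receptor Fas (29.8 and 31.3 against 41.7 and 42.4 CPM; log2 difference -0.46, adjusted p = 3.29e-04), and Cflar, the caspase-8 inhibitor cFLIP (127.2 and 123.9 against 154.0 and 149.1 CPM; -0.27, adjusted p = 6.45e-04). Of 21 regulators of the members, 3 were higher and 6 lower. Ddit3, which encodes CHOP, was the one with a log2 change over 0.5, at 9.86 and 11.5 against 22.3 and 21.1 CPM (-1.02 ± 0.123, SE; adjusted p = 8.79e-06), so that it and Bcl2l11 were both lower in positive cells. The other regulators were picked after their values were seen. Foxo1 read 172.9 and 169.6 against 197.3 and 195.9 CPM (-0.20, adjusted p = 0.00444), Foxo3 61.3 and 59.5 against 64.3 and 59.9 CPM (-0.04, adjusted p = 0.722), and Trp53 209.0 and 206.8 against 189.9 and 179.7 CPM (0.17, adjusted p = 0.0147). The other 2 higher regulators were Stat5a, which carries IL2 signals (0.24, adjusted p = 0.00669), and Huwe1, a ubiquitin ligase of Mcl1 (0.16, adjusted p = 0.0157), both lost without positive replicate 1 (0.112 and 0.377). The other 4 lower regulators were the survival kinases Pim3 (-0.40, adjusted p = 5.84e-04), Pim2 (-0.30, adjusted p = 1e-04) and Akt2 (-0.23, adjusted p = 0.00289), and the stress factor Atf4 (-0.16, adjusted p = 0.00988). Akt2 lost its call without positive replicate 1 (0.0711), and Atf4 without either positive library (0.206 and 0.0963) and with library sizes alone (0.0782). Of 6 cytokine receptor chains, Il2ra was higher (3329 and 3327 against 2637 and 2793 CPM; 0.29, adjusted p = 1.64e-04), Il2rb was lower (1417 and 1377 against 1689 and 1724 CPM; -0.29, adjusted p = 1.12e-04), and Il4ra was lower (-0.18, adjusted p = 0.0114; lost without positive replicate 2, 0.296). Foxo1 and Trp53 each lost their call when either positive library was left out (adjusted p of 0.0504 and 0.0929 for Foxo1, and 0.15 and 0.0938 for Trp53).

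**Figure D2:**
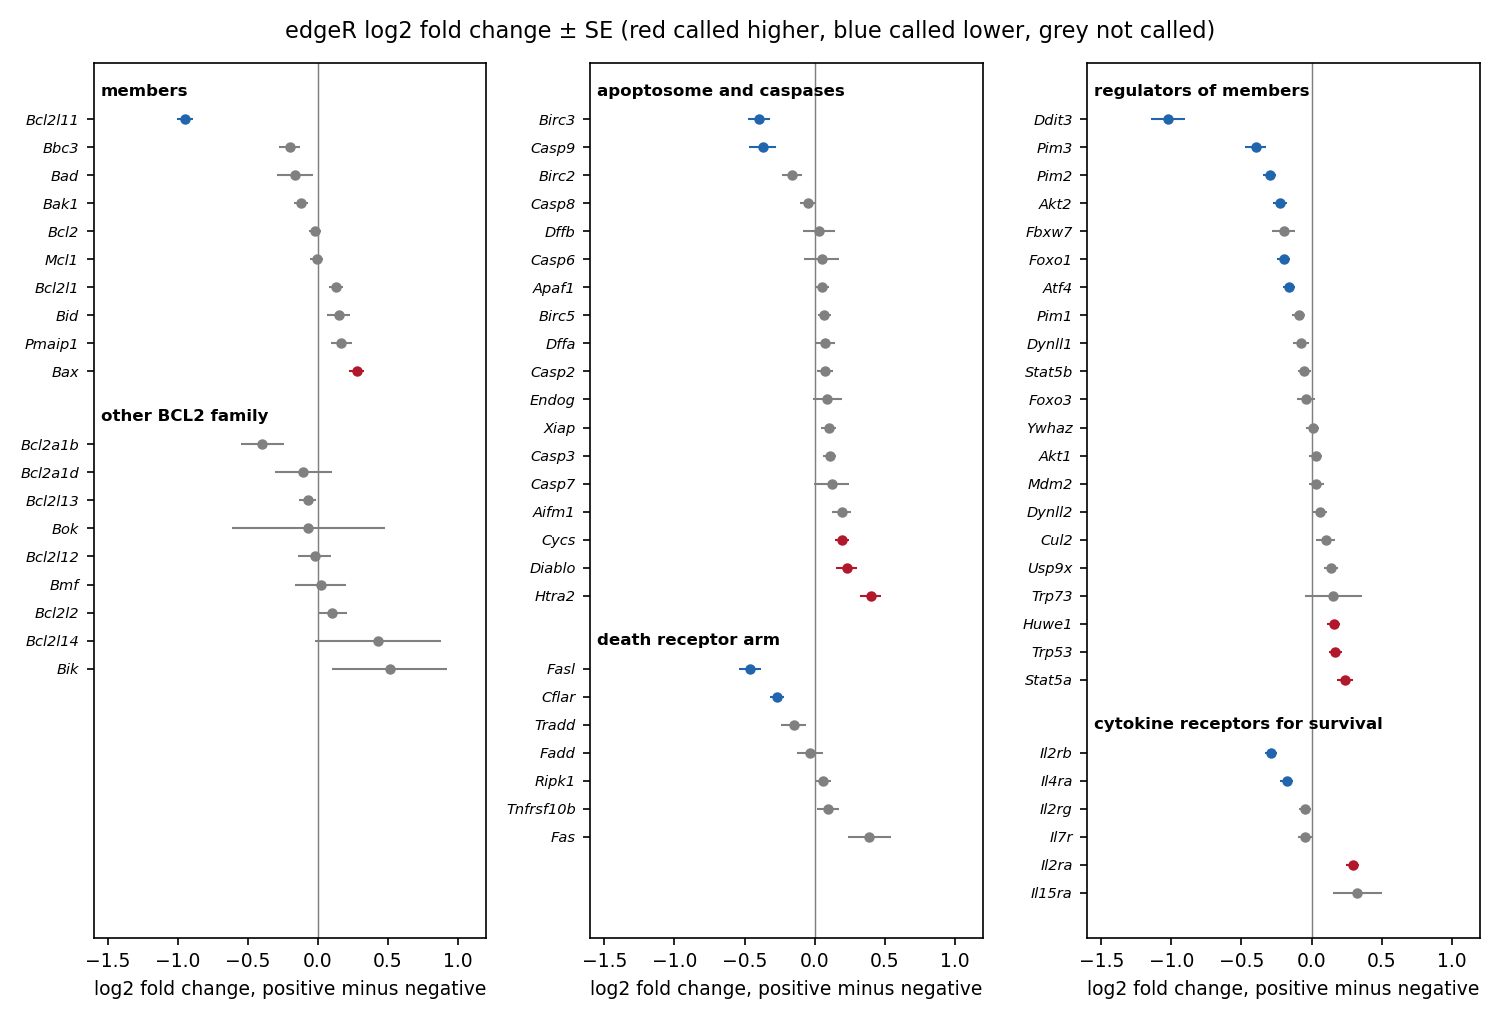
Log2 fold change, positive minus negative, with its SE (bars) from edgeR for the 10 members and for each tested gene of 5 pathway lists, with calls at an adjusted p under 0.05 in red (higher) or blue (lower). Bcl2l11 (-0.95) and Ddit3 (-1.02) are the leftmost called genes, and the 9 further BCL2 family genes are all grey.

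In chromatin, the annotated start of all 10 members lay in a region with a peak in every one of the 12 libraries, where 81.8% of the genes of the RNA table did. ATAC lists are of different lengths (49634 to 63761 peaks in sorted cells, 27406 to 55171 in tumour cells), so a peak is described by the percent of peaks in its own library with a lower fold enrichment, the authors' ratio of signal over local background. Over the 12 libraries, the start-site peak ranked above 0.5% to 9.8% of peaks at Bbc3 and above 4.1% to 14.7% at Bcl2l11. By this measure these 2 were the low end of the family. It ranked above 13.4% to 38.6% at Bcl2, 3.0% to 48.9% at Mcl1 and 32.1% to 75.4% at Bcl2l1. The BH3-only genes Pmaip1 (37.7% to 75.8%) and Bid (38.4% to 78.7%) and the effectors Bax (50% to 88.6%) and Bak1 (54.9% to 85.9%) ranked higher than Bbc3 and Bcl2l11. So did Bad (74.5% to 89.6%), whose region also holds the start of Gpr137. The range of each of these overlapped that of Bcl2l1. Ranks from lists of unequal length show no change between groups, and they are given here as a rough order of the members only. The order is by fold enrichment alone. By -log10 q the Bcl2l11 start-site peak was at 13.9 to 29.3 over the 12 libraries. It stayed in all 12 lists when each was cut to the 27406 peaks of largest -log10 q.

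At Bcl2l11, 1 peak spanned both annotated starts, which lie 1537 bp apart, in each of the 12 libraries. The authors' summit lay 103 and 51 bp after the first start in the 2 sorted positive libraries and 1602 and 1271 bp after it in the 2 sorted negative libraries. In the tumour it lay at 1598, 1747, 1150 and 1597 bp in negative replicates 1 to 4, and at 1508, -15, 1591 and -165 bp in positive replicates 1 to 4. The summit was thus nearer the second start in all 6 negative libraries and nearer the first in 4 of the 6 positive libraries. This was seen in the values and then described, so it carries no test. A summit is the single highest base of a broad peak, and the fold enrichment there was 2.46 to 3.88 in all 12 libraries.

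**Figure D3:**
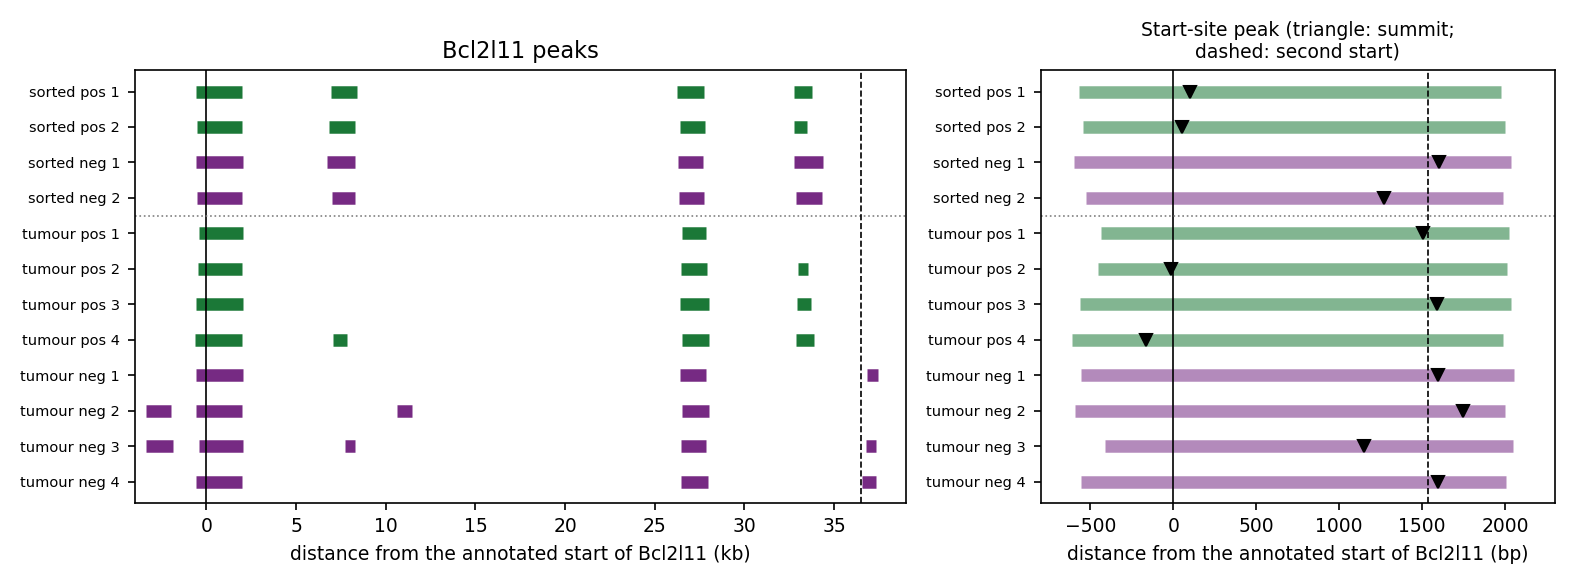
Peaks called at Bcl2l11 in each of the 12 libraries (rows), over the whole gene (left, in kb from the annotated start; dashed line, gene end) and around the start (right, in bp; triangles, summits; dashed line, second annotated start), with positive libraries in green and negative libraries in purple. Summits of the 6 negative libraries lie between 1150 and 1747 bp, and those of 4 positive libraries lie between -165 and 103 bp.

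In sorted cells, 43 of the 67 member regions held a peak in every library, against a background of 53.8% of all regions. Bcl2 held 33 of the 67 and Bcl2l1 held 14, as the longest genes of the family. All 4 regions of Bcl2l11, both of Bbc3, Bax, Bak1 and Bad, and the 1 of Pmaip1 were open in all 4 libraries. The downstream region of Bax also holds the start of Ftl1, and that of Bak1 the start of Ggnbp1. Regions in both positive and no negative library were 4 of 67, beside 8.03% of all regions, and those in both negative and no positive library were 5 of 67, beside 3.32% of all regions. With 2 libraries a side, an exact two-sided test cannot give a p under 0.333, and none was made.

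The 4 positive-only regions lay in Bcl2 (chr1:106566582-106567701 and chr1:106682785-106683640, 146589 and 30650 bp past the start), downstream of Bcl2l1 (chr2:152756549-152757545, which also overlaps Cox4i2) and in Bid (chr6:120907932-120908647, 8173 bp past the start). The Bid region was the strongest of them, with a fold enrichment of 3.74 and 4.48, above 39.3% and 46.2% of the peaks of its libraries. The Bcl2 region at 146589 bp was the weakest, at 0.7% and 0.9%. The 5 negative-only regions were 3 in Bcl2 (chr1:106629574-106630174, chr1:106639527-106640444 and chr1:106700353-106701404, at 84116, 73846 and 12886 bp), 1 in Bcl2l1 (chr2:152802989-152803659, at 28069 bp) and 1 just downstream of Mcl1 (chr3:95663776-95664749). The Bcl2l1 region had the largest -log10 q of these (7.13 and 13.6), and the Mcl1 region ranked above only 0.2% and 0.3% of peaks. At a -log10 q of at least 5 in every peak, 1 of the 4 and 1 of the 5 kept their pattern, and with equal list lengths 2 and 3 did. Exon and intron positions were not used here.

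**Figure D4:**
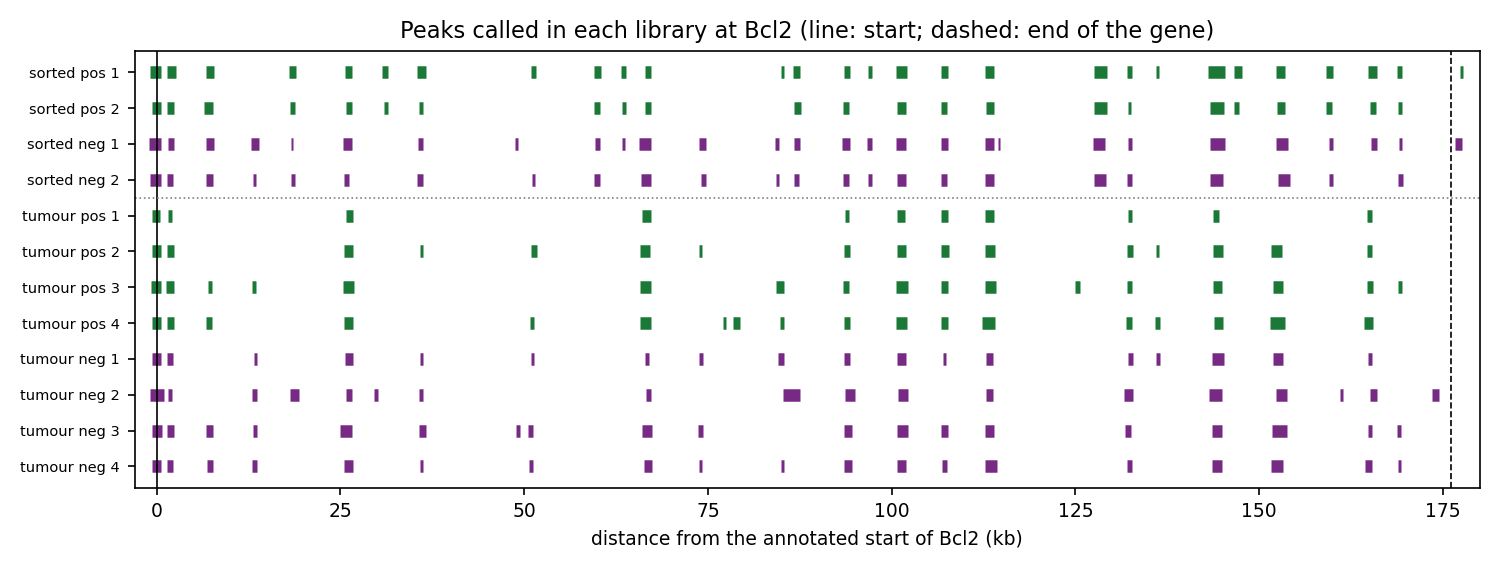
Peaks called in each of the 12 libraries (rows) across Bcl2, by distance in kb from its annotated start (solid line; dashed line, gene end; dotted line between sorted-cell and tumour libraries), with positive libraries in green and negative libraries in purple. Near 13 kb a peak is drawn in 6 of 6 negative libraries and in 1 of 6 positive libraries.

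In tumour cells, 27 of the 63 member regions were in all 8 libraries (background 29.0%). No member region was in all 4 libraries of 1 population and none of the other, a pattern that 0.691% (positive) and 1.04% (negative) of all regions showed. Regions with at least 3 more positive than negative libraries were 1 of 63 (background 2.51%), and those with at least 3 more negative than positive libraries were 4 of 63 (background 3.48%). They are a handful of sites, and each is named below.

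Of the 4, 2 lay in Bcl2. The region at chr1:106700616-106701306, 12984 bp past the start, was in 1 positive and 4 negative tumour libraries, and it overlaps the negative-only region of sorted cells at 12886 bp. At a -log10 q of at least 5 it was in 0 and 2. The region at chr1:106677589-106678594, 35696 bp past the start, was also in 1 positive and 4 negative libraries, and at a -log10 q of at least 5 in 0 and 4. The region downstream of Mcl1 (chr3:95663787-95664749) was in 0 positive and 3 negative tumour libraries, as in sorted cells in 0 positive and 2 negative, though its peaks ranked above only 0.0% to 1.1% of peaks in the tumour lists. The last lay downstream of Bcl2l11 (chr2:128162597-128163493), in 0 positive and 3 negative tumour libraries and in no sorted library. The region with more positive libraries was inside Bcl2l11 (chr2:128158895-128159906, 32857 bp past the start), in 3 positive and 0 negative tumour libraries, and its counterpart in sorted cells was open in all 4. At a -log10 q of at least 5 the Mcl1 region was in 0 positive and 1 negative tumour library, the downstream Bcl2l11 region in 0 and 2, and the region inside Bcl2l11 in 2 and 0. With equal list lengths none of the 5 kept a difference of 3 libraries, and the 2 Bcl2 regions were then in 0 positive libraries and in 2 (35696 bp) and 1 (12984 bp) negative libraries.

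Over all 12 libraries, the Bcl2 region near 12.9 kb was thus open in 1 of 6 positive and 6 of 6 negative libraries, and the Mcl1 region in 0 of 6 and 5 of 6. A difference of at least 5 libraries toward the negative cells was found in 0.109% of the 94635 regions merged over the 12 libraries and toward the positive cells in 0.0645%. That limit of 5 was set after these values were seen. Neither region kept a difference of 5 under stricter lists. With all 12 lists at 27406 peaks, the Bcl2 region near 12.9 kb was in no positive and 1 negative library and the Mcl1 region in no library, and at a -log10 q of at least 5 the Bcl2 region was in 1 sorted and 2 tumour negative libraries and the Mcl1 region in 1 tumour negative library. Of the 5 negative-only member regions of sorted cells, 3 stayed negative-only in the 12-library merge, and these 3 had more negative than positive tumour libraries. Of 2378 such regions over the genome, 18.6% had more negative, 20.3% had more positive and 1263 had no tumour peak, while each of the 3 member regions had one. The other 2 negative-only member regions merged with neighbouring peaks. Of them, the Bcl2l1 region at 28069 bp overlaps a tumour region (chr2:152802984-152805226) in 4 positive and 3 negative libraries, more positive than negative. The Bcl2 region, at 84116 bp, became part of a region in 2 positive and 3 negative tumour libraries. Of the 4 positive-only member regions, 2 had more negative tumour libraries, 0 had more positive and 2 had no tumour peak. Of 5843 such regions over the genome, 32.0% had more negative, 5.55% had more positive and 3421 had no tumour peak.

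**Figure D5:**
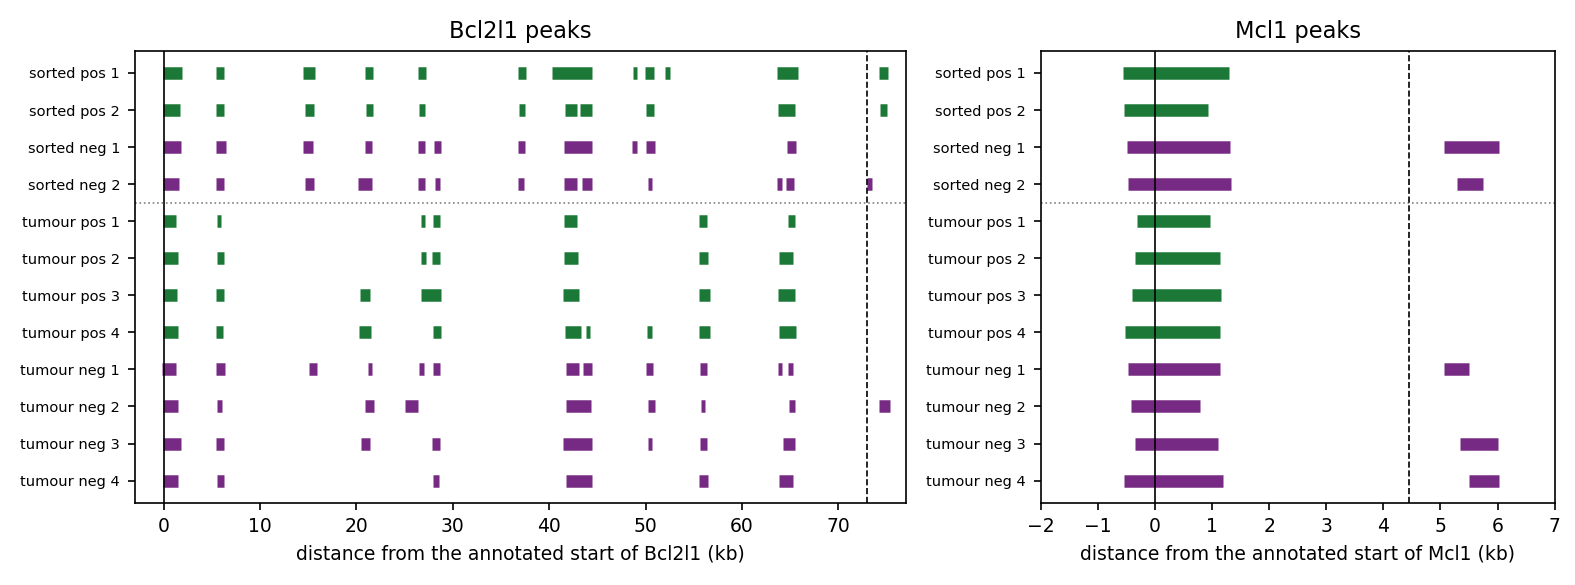
Peaks called in each of the 12 libraries (rows) at Bcl2l1 (left) and Mcl1 (right), by distance in kb from the annotated start (solid line; dashed line, gene end), with positive libraries in green and negative libraries in purple. The Mcl1 start is open in all 12 libraries and the site just past its end in 5 negative libraries, and the Bcl2l1 peak near 56 kb is in the 8 tumour libraries.

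Of the 76 member regions merged over the 12 libraries, 5 were in every library of 1 setting and none of the other. Regions that differed in part between sorted and tumour cells are not counted here. Regions in all 4 sorted and no tumour library were 4 of 76 (background 4.76%), with 3 in Bcl2 (chr1:106554283-106555216, chr1:106585033-106586889 and chr1:106653866-106654818) and 1 in Bcl2l1 (chr2:152794171-152795002). The reverse was rarer, at 1 of 76 beside 0.173% of all regions. That region lies inside Bcl2l1 (chr2:152775027-152776188, 55540 bp past the start) and held a peak in 8 of 8 tumour libraries and 0 of 4 sorted libraries, with a fold enrichment of 2.59 to 7.64. At a -log10 q of at least 5 it was in 7 of the 8. The setting, the table and the list length differ together between sorted and tumour libraries and cannot be told apart. With all 12 lists at 27406 peaks, 1 of the 4 sorted-only regions kept its pattern (chr1:106585033-106586889). The Bcl2l1 region was then in 7 of 8 tumour libraries and no sorted library, and the 1 region in all tumour and no sorted libraries was another, in Bcl2 (chr1:106581490-106582622), which with the full lists was open in all 12.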

How the data were processed

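RNA-seq covered 2 LC3-GFP positive and 2 negative libraries, and ATAC-seq 2 and 2 libraries of sorted cells and 4 and 4 of tumour cells, grouped by the cell population in the labels. The members and the gene lists were chosen with earlier results of these data known. The deposited RNA table holds estimated counts per gene, unscaled, with 22.5% to 23.8% of values not whole, for which the submitters' processing notes name Partek, STAR, DESeq2 and the mm10 build. Per the labels' protocols a mirVana kit was used for extraction. How strand and shared reads were handled is not given in the sources used here. For ATAC-seq the same notes name MACS2, BWA, cutadapt, Partek and mm10. The deposited lists give the peaks of each library separately, with a pileup signal, a fold enrichment ratio, and -log10 of the p-value and q-value, per the file headers. A shift for the Tn5 cut is not given in the sources used here, and read depth is unknown from the lists.

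Estimated counts were rounded and tested with edgeR 4.0.16 (R 4.3.3, filterByExpr, TMM, quasi-likelihood test, Benjamini-Hochberg adjustment, threshold 0.05), checked on simulated data. In that check 14 of 67 genes changed by 1.2-fold were called, and 65 of 67 changed by 1.5-fold. Changes of 1.2-fold were thus mostly missed, and a gene not called may still differ by that much. CPM is on TMM-scaled library sizes, and 3 counts were 0.167 to 0.21 CPM. DESeq2 1.42.0 was an alternative. Intervals are 95% intervals of the fit and levels are not compared between genes. Peaks that overlapped by at least 1 bp were merged into regions, and a region was open in a library that held a peak in it (Python 3.11.15, pandas 2.3.3). Motifs and sequences are from RefSeq, GRCm38.p6, which is mm10. All members were named, and from each pathway list the called genes with a log2 change over 0.5 in size, or otherwise the 2 called genes of largest change. Other pathway genes were named after their values were seen. Regions were named when open in all libraries of 1 group and none of the other, or when at least 3 more tumour libraries of 1 population held them. Same-numbered RNA samples were not treated as pairs in the main fit. The correlation of their deviations was low (0.0646 over 12022 genes, below 0.1), which cannot show that they were unpaired. Whether they are pairs is not given in the sources used here. Alternatives were other scaling, tools, filters, peak thresholds, list lengths, windows and overlaps, and leaving out each library.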

Additional observations from a re-analysis of the deposited data

Results flagged for a closer look

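The number of peaks in tumour positive replicate 1 stood apart. It listed 27406 peaks, where the other 3 positive tumour libraries listed 37154, 36539 and 37477, and its gap to the nearest of them was 0.907 of the range of the group, above Dixon's 95% critical value for 4 samples. Of these peaks 31 lay at the members, against 37, 40 and 43 in the other 3 libraries, so that per 1000 peaks it was at 1.13 beside 1.0, 1.09 and 1.15. In all, 4 sets of values were tested this way, and chance flags about 1 in 20. Without this library, 1 member region was open in all remaining positive and no negative tumour libraries instead of 0.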

How the results depend on the processing

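Of the RNA calls of the members, those of Bcl2l11 and Bax were kept under every alternative, with log2 changes of -0.95 to -0.88 and 0.21 to 0.35. The count of members called, 2 with TMM, was 4 with library sizes alone and 2 to 4 when each library was left out in turn, the 4 without negative replicate 2. With the replicate block it was 5, as Bbc3 (adjusted p = 0.0393), Bcl2l1 (0.0473) and Pmaip1 (0.0409) joined. Whether the same-numbered samples are pairs is not known. Over all genes, calls went from 3000 to 1688 with DESeq2, and to 1722 and 1806 without positive replicates 1 and 2. Of 310 values of single genes under the alternatives, 275 kept their direction and side of the threshold, 10 passed it newly and 20 no longer passed it. The reversed signs were of genes not called: with library sizes alone Bcl2 (0.04), Mcl1 (0.05) and Foxo3 (0.02), without negative replicate 2 Mcl1 (0.02) and without negative replicate 1 Foxo3 (0.01). With each library left out in turn they ranged from -0.04 to 0.02 for Mcl1 and -0.09 to 0.01 for Foxo3. A fit that leaves out a library assumes that the lone sample of its group varies like the other group. In sorted cells the positive-only count of 4 was 4 to 8 with a library left out, 8 without positive replicate 2 and 7 without negative replicate 1. The negative-only count of 5 was 5 to 7 with a library left out, 3 with equal list lengths and 1 at a -log10 q of at least 5. In the tumour, 0 positive-only regions became 0 to 1, and 0 negative-only regions became 0 to 2 (2 without negative replicate 2) and 1 at a -log10 q of at least 5. Regions of sorted cells alone, 4, were 4 to 6 with a library left out, 6 without tumour negative replicate 2, and 1 with equal list lengths. There was 1 region of tumour cells alone with each library left out in turn, 0 at a -log10 q of at least 5, and 1 with equal list lengths, which was a different region. Fewer peaks are in the lists under the stricter and equal-length settings by construction, and the cause of the other changes was not tested.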
